A study of Homo sapiens with 4 samples.

Results

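The genes described here make up a short nitric oxide and arginine set: NOS1, NOS1AP, ARG1, ARG2, ASL and ASS1. They were taken by symbol from the deposited count tables, and all 6 were found among the 36601 features. The tables hold single-nucleus RNA counts of enteric ganglioids, free-floating clusters of enteric nervous system cells differentiated from the human embryonic stem cell line H9. The 4 samples were 2 control cultures and 2 cultures given PP121, a kinase inhibitor that acts on several receptor tyrosine kinases, at 2 µM from day 15 to day 20. Each sample pooled ganglioids of 1 differentiation, so every value comes from a single cell line grown in vitro with no gut tissue around it. Control 1 and PP121 1 are annotated as day 42, and control 2 and PP121 2 as day 38, so each day holds 1 sample of each group.

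Nitric oxide is the main inhibitory transmitter of enteric motor neurons, which relax gut smooth muscle. Neuronal nitric oxide synthase, encoded by NOS1, makes it from arginine and releases citrulline. NOS1AP is an adaptor protein that binds the synthase. Argininosuccinate synthase (ASS1) and argininosuccinate lyase (ASL) turn citrulline back into arginine, and the arginases ARG1 (cytosolic, best known from liver) and ARG2 (mitochondrial) break arginine down to ornithine and urea, which competes with the synthase for substrate.

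The 6 genes are also the set from which the study scored nitric oxide synthesis when it annotated nitrergic neurons, together with imputed NOS1. Levels of these genes in nitrergic against other neurons were therefore fixed in part by that annotation and are described below with no test. Comparisons between classes, treatments and days were fitted by edgeR on counts summed per sample and class, with adjusted p-values over all genes tested. Classes came from clustering the same nuclei, so p-values between classes are too small. With 2 samples a group, p-values measure only the spread between these samples.

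On GRCh38 (GENCODE v29) NOS1 spans 117208142 to 117452170 of chromosome 12 on the reverse strand. The others are on the forward strand: NOS1AP at 162069774 to 162370475 of chromosome 1, ASL at 66075798 to 66093558 of chromosome 7 and ASS1 at 130444929 to 130501274 of chromosome 9, with the arginases given below. All 6 are protein-coding genes, and counts from nuclei can come from exons and introns.

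The samples held between 2912 and 4587 annotated nuclei and between 23348045 and 34123759 unique molecular identifiers (UMIs, 1 per captured RNA molecule). Enteric neurons were 6557 of 14812 annotated nuclei, progenitor 1 2892, progenitor 2 3800, mesenchymal 903, unknown 568 and epithelial 92. Between 4 and 15 cell barcodes were shared by any pair of samples. The 8 neuron markers summed to between 6164 and 8574 CPM (UMIs of a gene per 1000000 UMIs of the summed nuclei) in the neurons of the 4 samples and to at most 2629 CPM in any other class. The 11 mesenchymal markers summed to between 4576 and 5182 CPM in the mesenchymal class and to at most 477 CPM elsewhere. The 3 epithelial markers reached 30.9 to 59.8 CPM in the class labelled epithelial, against at most 16.4 CPM in neurons, both progenitor classes and the unknown class. In the mesenchymal class they ran from 14.1 to 104 CPM, so they did not bear out the label against that class. The epithelial class held 9 to 37 nuclei a sample. The 7 progenitor markers summed to less in progenitor 1 (649 to 934 CPM) than in progenitor 2 (1914 to 2434 CPM), and reached 1858 to 2361 CPM in the unknown class. They summed to 579 to 1164 CPM in the mesenchymal and 721 to 873 CPM in the epithelial class. These markers thus did not set progenitor 1 apart from those classes. The 5 glial markers summed to no more than 53.3 CPM in any class.

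**Figure D1:**
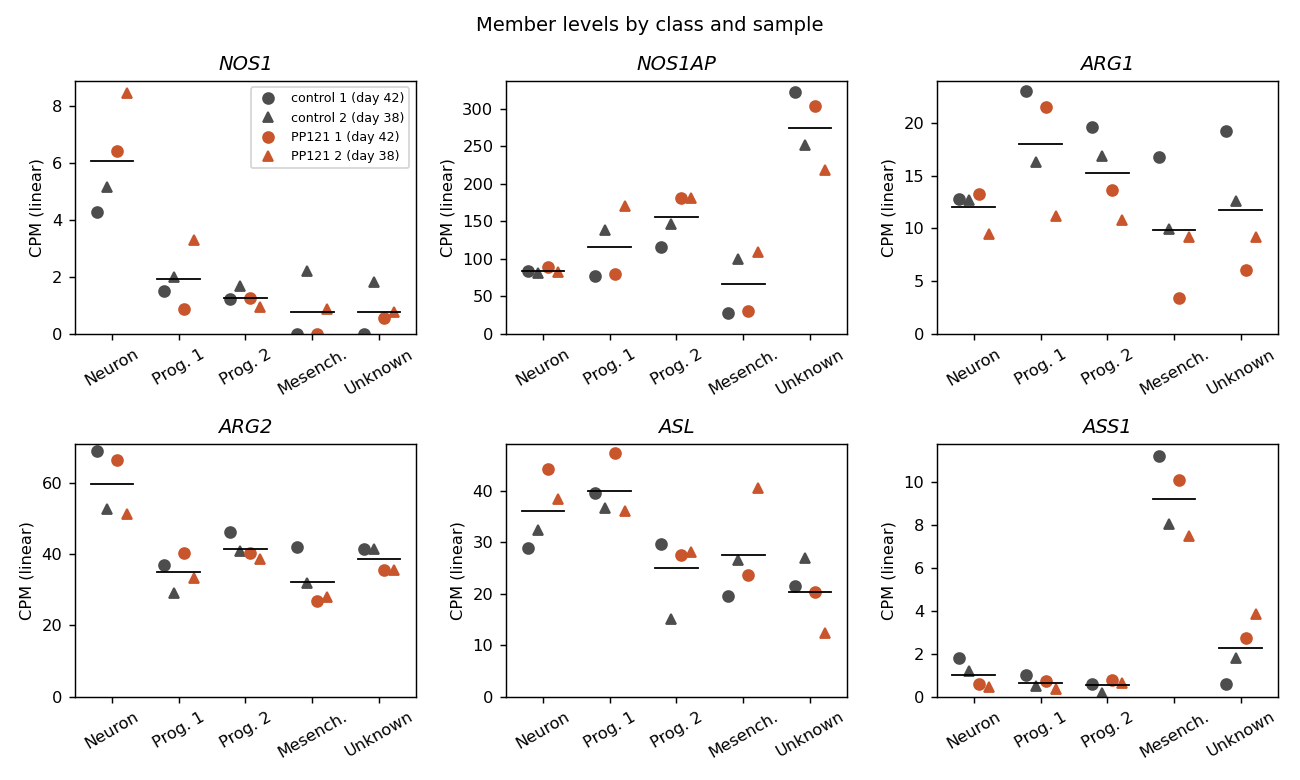
Level of each gene in CPM (y axis, linear, from 0) in the nuclei of 5 annotated classes (x axis) in each of the 4 samples; colour gives the treatment, marker shape the day and the bar the mean of 4 samples. NOS1 stood highest in neurons, NOS1AP in the unknown class and ASS1 in the mesenchymal class, while ARG1, ARG2 and ASL were found in every class shown.

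NOS1 UMIs were few and sat mostly in neurons. Of 404 NOS1 UMIs in annotated nuclei, 79.2% were in enteric neurons. In neurons NOS1 stood at 4.27 and 5.14 CPM in control 1 and 2 and at 6.42 and 8.45 CPM in PP121 1 and 2. Every neuron sum lay above every progenitor sum, which ran from 0.854 to 3.28 CPM in progenitor 1 and from 0.927 to 1.67 CPM in progenitor 2. Neurons exceeded progenitors by 2.10 ± 0.24 on the log2 scale (edgeR adjusted p = 3.43e-05), and the neuron level also exceeded the mesenchymal level (mesenchymal minus neuron -2.21 ± 0.55, edgeR adjusted p = 0.0129) and that of the unknown class (-3.31 ± 0.61, edgeR adjusted p = 0.00185). The mesenchymal sums rested on 11 NOS1 UMIs in all, with 0 in control 1 and PP121 1, where 3 counts would be 8.41 and 10.1 CPM. Without PP121 2 the mesenchymal difference from neurons was no longer called (-1.63, edgeR adjusted p = 0.117).

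A NOS1 UMI was found in 52 of 2301 neurons of control 1 (2.26%, 95% Clopper-Pearson interval 1.69 to 2.95) and in 30 of 1250 of control 2 (2.40%, 1.62 to 3.41). In PP121 1 it was found in 42 of 2030 neurons (2.07%, 1.495 to 2.79) and in PP121 2 in 20 of 976 (2.05%, 1.26 to 3.15). All 4 intervals overlapped. The share in mesenchymal nuclei, assumed here to lack NOS1, was 0 to 1.96% at median depths of 7227 to 8401 UMIs. Neurons had median depths of 7210 to 8102 UMIs. The mesenchymal counts of 0 in control 1 and PP121 1 allow up to 7.5% and 9.09%. In control 2, the sample with the highest mesenchymal share, the neuron and mesenchymal shares, 2.40% and 1.96%, were within counting error. A single NOS1 UMI was therefore not read as expression. Over the 4 samples together a NOS1 UMI was found in 11 of 903 mesenchymal nuclei and in 144 of 6557 neurons. Thinned to 2000 UMIs a nucleus, which left out 21 neurons, the shares were 0.960%, 0.722%, 0.642% and 0.924% in control 1, control 2, PP121 1 and PP121 2. These intervals cover counting error only.

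NOS1 UMIs were unevenly spread over those neurons. The nucleus richest in NOS1 held 8 UMIs in control 1, 13 in control 2, 25 in PP121 1 and 18 in PP121 2. The 3 richest nuclei held 22.2% of the neurons' NOS1 UMIs in control 1 and 42.1% in control 2, against 47.2% in PP121 1 and 56.8% in PP121 2. Neurons with 5 or more NOS1 UMIs numbered 3, 2, 4 and 5 in the same order, and each of those 14 was annotated nitrergic. No other gene of the set apart from ASS1, which had 61 UMIs in neurons in all, was so concentrated: the 3 richest neurons held at most 10.8% of the UMIs of ARG1, 5.71% of NOS1AP, 4.01% of ARG2 and 3.87% of ASL.

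**Figure D2:**
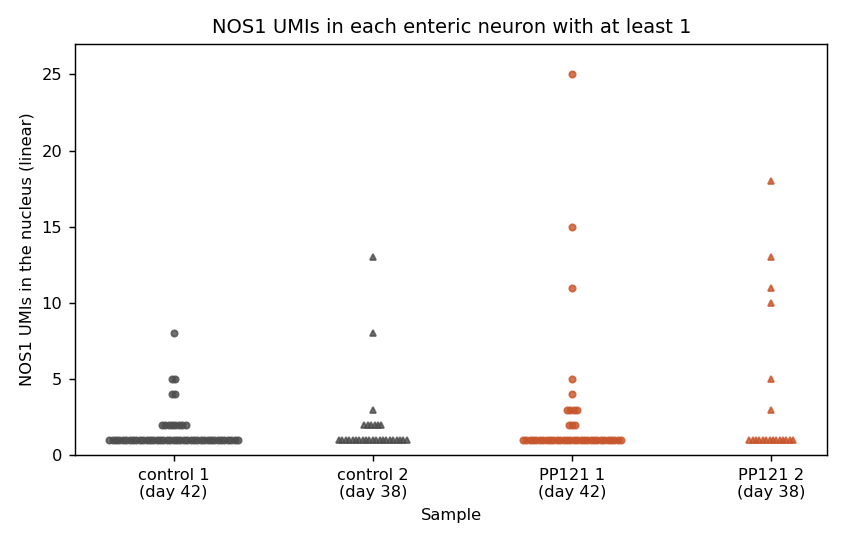
NOS1 UMIs (y axis, linear) in each enteric neuron that had at least 1, by sample (x axis); 1 point is 1 nucleus, and points of equal count are spread sideways. Most neurons shown held 1 UMI, and the highest counts were 8 and 13 in the control samples and 25 and 18 in the PP121 samples.

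NOS1AP was the most abundant of the 6 genes in CPM and was present in every class. It was even across neurons, at 84.4 and 81.7 CPM in control and 88.9 and 82.0 CPM in PP121. Its highest level was in the unknown class, at 322 and 252 CPM in control and 305 and 218 CPM in PP121, where 67.8% to 77.3% of nuclei had a UMI. All 4 of those sums lay above every other sum of the gene. The unknown class exceeded neurons by 1.76 ± 0.13 on the log2 scale (edgeR adjusted p = 4.71e-06). Progenitor 1 and 2 summed also stood above neurons (neurons minus progenitors -0.64 ± 0.12, edgeR adjusted p = 0.00131), the direction opposite to that of NOS1. In progenitor 1 alone both day 42 sums, given in the next paragraph, lay below the neurons of the same samples. Per kilobase of annotated gene, NOS1AP was at 0.280 CPM in neurons, below ASL (2.03), ARG2 (1.87) and ARG1 (1.08) and above NOS1 (0.0249) and ASS1 (0.0178). An antisense gene, AL450163.1, overlaps 9.36% of NOS1AP and was at 13.7 CPM in neurons of control 1; strand handling of the counting is not given in the sources used here, so such reads could be shared.

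The level of NOS1AP in progenitor 1 went with the day. It was at 77.1 CPM in control 1 and 80.0 CPM in PP121 1, both of day 42, and at 138 CPM in control 2 and 170 CPM in PP121 2, both of day 38. The days did not overlap. With treatment in the model the day 38 samples were higher by 1.13 ± 0.17 on the log2 scale (edgeR adjusted p = 2.34e-08). NOS1AP was the 1 called of the 4 genes of the set tested there, where 14.6% of all genes were. Without the treatment term 0% of all genes were called and the edgeR adjusted p of NOS1AP was 0.0917. The mesenchymal class showed the same order, with 28.0 and 30.3 CPM on day 42 and 100.3 and 109 CPM on day 38, but held only 40 and 33 nuclei on day 42. In neurons the same day difference in NOS1AP was -0.02 ± 0.10 (edgeR adjusted p = 0.93), and none of the 6 genes was called there, where 9.49% of all genes were. In progenitor 2 it was 0.22 ± 0.12 (edgeR adjusted p = 0.398), and none of 4 genes tested was called, where 4.81% of all genes were. Day and differentiation batch cannot be told apart here, and these comparisons were added after the levels were seen.

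The arginases differed in their spread over classes. ARG2 was higher in neurons than in progenitors, at 68.8 and 52.5 CPM in control neurons and 66.2 and 51.3 CPM in PP121 neurons, while progenitor sums ran from 29.1 to 46.1 CPM. The neuron and progenitor sums did not overlap, and the difference was 0.67 ± 0.09 on the log2 scale (edgeR adjusted p = 0.000108). ARG2 was also lower in the mesenchymal class than in neurons (-0.83 ± 0.18, edgeR adjusted p = 0.00674) and lower in the unknown class (-0.58 ± 0.15, edgeR adjusted p = 0.0124, and 0.101 without PP121 1). In neurons it was lower on day 38 than on day 42 in both groups, by -0.32 ± 0.11, which missed the threshold (edgeR adjusted p = 0.06). ARG1 was at 12.8, 12.7, 13.3 and 9.48 CPM in neurons of control 1, control 2, PP121 1 and PP121 2. It was lower in neurons than in progenitors by -0.37 ± 0.12 (edgeR adjusted p = 0.0263), a call that was lost with DESeq2 (adjusted p = 0.0726), with neurons and progenitors split at a joint boundary (0.0516) and without control 1 (-0.26), control 2 or PP121 1.

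Nearly all of ARG1 lies under another gene. MED23, a Mediator subunit gene on the opposite strand, covers 92.7% of ARG1 on chromosome 6 (131573144 to 131584332, GRCh38, GENCODE v29, forward strand). MED23 was at 93.0, 119, 85.2 and 77.2 CPM in neurons of the 4 samples in the order control 1, control 2, PP121 1 and PP121 2, against 143, 197, 149 and 140 CPM in progenitor 1. It was thus several times as abundant as ARG1 in neurons and, as with ARG1, lower there than in progenitor 1 in all 4 samples. In progenitor 2 MED23 was at 69.5, 88.5, 71.0 and 67.8 CPM, below the neurons of the same sample in all 4. ARG1 went the other way, at 19.6, 16.8, 13.6 and 10.8 CPM in progenitor 2, above the neurons of the same sample in all 4. Its part in the ARG1 counts was not tested. In the unknown class the 4 hepatocyte and myeloid markers summed to very different levels between samples, the highest being 586 CPM. The ARG1 level of that class, 6.02 to 19.2 CPM, lay within the range of the other classes. Whether the class held hepatocyte or myeloid cells was not tested. ARG2, on chromosome 14 (67619798 to 67651720, forward strand), is overlapped over 14.6% of its length by VTI1B on the opposite strand, at 48.5 CPM in neurons of control 1.

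The arginase genes also differ in the bases before their start, shown here because ARG2 was higher in neurons and ARG1 was not. Promoters were taken as the 250 bases before the RefSeq start on GRCh38.p14. Printed below is the forward-strand part of each that also lies before the GENCODE start, with CG dinucleotides in capitals: chr6:131572976-131573143 for ARG1 and chr14:67619670-67619797 for ARG2.
ARG1: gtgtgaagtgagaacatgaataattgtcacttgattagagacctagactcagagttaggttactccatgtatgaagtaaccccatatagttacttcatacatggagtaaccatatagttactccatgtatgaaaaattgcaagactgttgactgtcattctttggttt
ARG2: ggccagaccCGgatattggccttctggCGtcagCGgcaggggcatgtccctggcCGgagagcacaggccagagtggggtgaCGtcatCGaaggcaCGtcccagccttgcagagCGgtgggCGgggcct
The printed stretches held 0 CG in 168 bases for ARG1 and 9 in 128 bases for ARG2. Over the full 250 bases ARG1 had 1 CG and ARG2 had 27, against a median of 11 over 35116 promoters of the same length, of which 93.9% held at least 1. The letters TATAAA, searched on both strands, were in the ARG1 window after the printed stretch and not in that of ARG2, and 10.7% of all these promoters hold them. ASL had 22 CG over 250 bases. These counts describe the letters only.

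The citrulline recycling enzymes were split between classes. ASL was found throughout, at 28.9 and 32.5 CPM in control neurons and 44.3 and 38.4 CPM in PP121 neurons, and from 36.1 to 47.4 CPM in progenitor 1. It was lower in progenitor 2, at 29.6, 14.99, 27.6 and 28.1 CPM, and the progenitor 1 and 2 sums did not overlap. Progenitor 2 minus progenitor 1 was -0.72 ± 0.16 on the log2 scale (edgeR adjusted p = 0.0015). ASL was also lower in the unknown class than in neurons (-0.79 ± 0.23, edgeR adjusted p = 0.0207, and 0.13 without PP121 1), and neurons did not differ from progenitors as a whole at the threshold (0.26 ± 0.11, edgeR adjusted p = 0.0679). ASS1 was almost absent from neurons and was the 1 gene of the set that stood highest in mesenchymal nuclei. It was at 11.2 and 8.01 CPM in the mesenchymal class of control 1 and 2 and at 10.1 and 7.49 CPM in that of PP121 1 and 2, from 4, 29, 3 and 26 UMIs. In neurons it was at 1.79 and 1.17 CPM in control and 0.594 and 0.457 CPM in PP121. Mesenchymal nuclei exceeded neurons by 3.25 ± 0.43 on the log2 scale (edgeR adjusted p = 0.000397), and the difference was 3.00 to 3.48 with any 1 sample left out. The genome holds several processed copies of ASS1, so its low counts are uncertain. ASL is overlapped over 32.6% of its length by AC068533.4, a protein-coding gene on the same strand that was not among the features. The part of AC068533.4 in the ASL counts was not tested.

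Between neurons and progenitors 4 of 5 genes tested were called where 49.2% of all genes were: NOS1 and ARG2 higher (24.5% of all genes were) and NOS1AP and ARG1 lower (24.6%), with a median log2 difference of 0.26 against -0.02 over all genes tested. Between mesenchymal nuclei and neurons 3 of 6 were called, where 31.2% of all genes were. Between the unknown class and neurons 4 of 5 were called, where 33.1% of all genes were (2 of 5 without PP121 1, where 22.1% were). Between progenitor 2 and progenitor 1, NOS1AP and ASL were called out of 4 tested, where 57.3% of all genes were. The NOS1AP difference between the progenitor classes (0.45 ± 0.17, edgeR adjusted p = 0.0375) was not called without control 1 (0.40) or PP121 1 (0.19).

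Neurons annotated nitrergic numbered 449, 230, 358 and 91 in control 1, control 2, PP121 1 and PP121 2. NOS1 was at 17.8, 25.9, 31.1 and 82.4 CPM in them, and at 0.995, 0.673, 0.512 and 0.141 CPM in the neurons annotated as other. Some neurons carried neither label. That contrast is what the annotation selected for. Even so, 90.9%, 89.6%, 90.8% and 81.3% of nitrergic neurons had no NOS1 UMI, and of the neurons with a NOS1 UMI, 41 of 52, 24 of 30, 33 of 42 and 17 of 20 were annotated nitrergic. For the remaining genes the ratio of nitrergic to other neurons varied by sample: NOS1AP was 0.762 to 1.32 times as high, ARG1 0.659 to 1.495 times, ARG2 0.997 to 1.29 times and ASL 1.02 to 1.38 times. ASL was the 1 gene besides NOS1 that was higher in nitrergic neurons in all 4 samples. ASS1 had 0, 2, 1 and 0 UMIs in nitrergic neurons.

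Neurons chosen by the NOS1 transcript alone did not differ in the other genes at the threshold. Counts of neurons with a NOS1 UMI were set against those of neurons without, with the sample in the model and NOS1 left out. None of the 4 genes tested was called by edgeR or DESeq2 and none had an unadjusted p under 0.05, where 0.41% of all genes were called by edgeR. NOS1AP differed by -0.13 ± 0.19 on the log2 scale, ARG1 by 0.19 ± 0.42, ARG2 by 0.07 ± 0.21 and ASL by 0.06 ± 0.24 (edgeR adjusted p from 0.987 to 1.00). NOS1AP was at 62.7, 81.1, 73.2 and 104 CPM in neurons with a NOS1 UMI and at 85.1, 81.7, 89.3 and 81.4 CPM in those without, so the groups overlapped. Neurons with a NOS1 UMI were deeper, with sample medians of 8308.5 to 10520 UMIs against 7153.5 to 8019.5 UMIs.

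NOS1 UMIs of neurons sat mostly in those annotated nitrergic, with 66 of 81 in control 1, 51 of 57 in control 2, 96 of 108 in PP121 1 and 71 of 74 in PP121 2. A neuron could carry more than 1 of the 6 transmitter identities, so the levels of the other identities below include neurons that are also nitrergic. Serotonergic neurons had NOS1 at 2.78, 11.8, 11.5 and 13.6 CPM and held 17.3%, 49.1%, 64.8% and 37.8% of the NOS1 UMIs of all neurons while being 24.5%, 19.0%, 36.4% and 20.6% of the neurons, in the order control 1, control 2, PP121 1 and PP121 2. GABAergic neurons had 2.28, 4.81, 4.46 and 30.8 CPM. The value of PP121 2 came from 43 UMIs in 6 nuclei, and of the 5 neurons of that sample with 5 or more NOS1 UMIs 4 were also GABAergic. Of the 4 such neurons of PP121 1, 3 were also serotonergic, and in control 2 both were. Cholinergic neurons had 3.00, 5.17, 1.58 and 13.8 CPM, the last from 11 UMIs in 1 nucleus. Catecholaminergic neurons were steady and low, at 1.43 to 2.24 CPM, as were glutamatergic neurons at 3.64 to 4.02 CPM, and neurons with no identity had 0 to 1.12 CPM. In the subtypes of nitrergic neurons, which were numbered in control and lettered in PP121 and are not matched here, control subtype 1 held the most nuclei (211 of 449 in control 1 and 158 of 230 in control 2) and the most NOS1 UMIs (50 of 66 and 40 of 51). Its NOS1 level was 28.2 CPM in control 1 and 29.7 CPM in control 2. The highest level in control 2 was that of subtype 4, 167 CPM from 10 UMIs in 7 nuclei, against 6.26 CPM for subtype 4 in control 1.

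**Figure D3:**
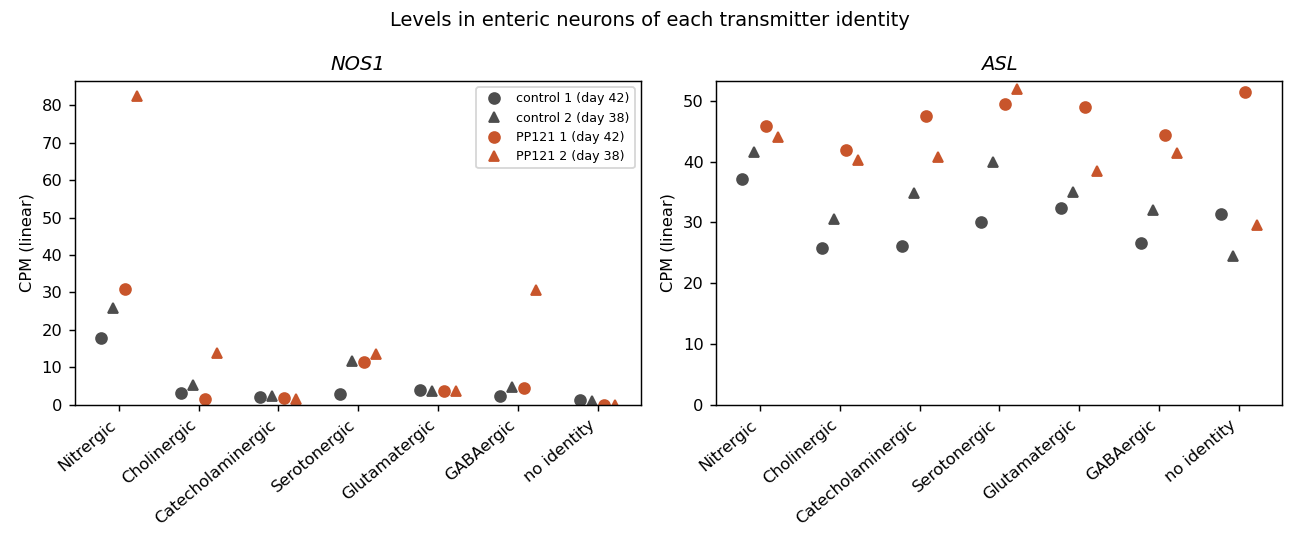
Level of NOS1 and ASL in CPM (y axes, linear, from 0) in enteric neurons of each transmitter identity (x axis) in each of the 4 samples; a neuron can count under several identities. NOS1 was highest in nitrergic neurons, by annotation, and ASL was higher in both PP121 samples than in both control samples in the 6 named identities.

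The question of the treated samples was what PP121 given early did to the neurons present weeks later. In neurons, NOS1 and ASL were higher and ASS1 lower in both PP121 samples than in both control samples, but none of the 6 genes was called in the unblocked edgeR fit, in which 0% of the 21243 genes tested were called (2549 had an unadjusted p under 0.05, as did 3 of the 6). DESeq2 called 0.41% of all genes and none of the 6. The days paired the samples, and with the replicate number as a block 3 of the 6 were called, where 14.8% of all genes were. NOS1 and ASL were among the 7.97% called higher and ASS1 among the 6.86% called lower. Groups that did not overlap were common: 45.1% of all genes tested in neurons had them, as did 3 of these 6.

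NOS1 in neurons was higher with PP121 by 0.69 ± 0.28 on the log2 scale (edgeR adjusted p = 0.406, unadjusted 0.0427). The within-day differences were 0.59 on day 42 and 0.72 on day 38. With the replicate block it was called (0.68 ± 0.23, edgeR adjusted p = 0.0417), and with the block and the joint boundary it was not (edgeR adjusted p = 0.105), a fit in which 5.87% of all genes were called. The share of neurons with a NOS1 UMI was not higher with PP121, at 2.26% and 2.40% in control and 2.07% and 2.05% in PP121. The mean count in such a neuron was 1.56 and 1.90 UMIs in control and 2.57 and 3.70 UMIs in PP121. Without the 3 NOS1-richest neurons of each sample, a choice made after the counts were seen, the levels were 3.33, 2.98, 3.40 and 3.67 CPM. The difference was then 0.19 ± 0.29 (edgeR adjusted p = 0.819, and 0.738 with the block, where 14.1% of all genes were called). The removal took 18 and 24 NOS1 UMIs from control 1 and 2 and 51 and 42 from PP121 1 and 2. A smaller difference was thus built in, so the values show where the UMIs lay and do not test the PP121 difference.

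ASL in neurons was higher with PP121 by 0.47 ± 0.15 (edgeR adjusted p = 0.377) and was called with the replicate block (0.48 ± 0.12, edgeR adjusted p = 0.0092), also with the joint boundary (edgeR adjusted p = 0.0369). The within-day differences were 0.61 on day 42 and 0.24 on day 38. Unlike NOS1, the ASL UMIs were spread over many neurons, and the share of neurons with a UMI was 17.6% and 21.7% in control and 25.0% and 22.4% in PP121. Thinned to 2000 UMIs the shares were 5.63% and 5.93% against 8.70% and 7.91%. ASL was higher in both PP121 samples than in both control samples in each of the 6 transmitter identities, which share neurons, and not in neurons with no identity, where control had 31.5 and 24.5 CPM and PP121 51.4 and 29.5 CPM. ASL was at 30.0 and 39.99 CPM in control serotonergic neurons and at 49.4 and 51.9 CPM in PP121 serotonergic neurons.

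ASS1 in neurons was lower with PP121 by -1.44 ± 0.47 (edgeR adjusted p = 0.377), from 34 and 13 UMIs in control to 10 and 4 in PP121. It was called with the replicate block (-1.47 ± 0.48, edgeR adjusted p = 0.0395) but not with the block and the joint boundary (-1.05, edgeR adjusted p = 0.212). The share of neurons with an ASS1 UMI was 1.30% and 0.960% in control and 0.493% and 0.307% in PP121. In the mesenchymal class, where ASS1 was most abundant, the groups overlapped, with PP121 slightly lower within each day (log2 -0.15 on day 42 and -0.098 on day 38). In progenitor 2 and in the unknown class ASS1 was higher in both PP121 samples than in both control samples, opposite to neurons. Those levels rested on 16 and 12 UMIs in all. NOS1AP (0.08 ± 0.12), ARG1 (-0.11 ± 0.21) and ARG2 (-0.01 ± 0.17) overlapped between the groups in neurons. An exact two-sided permutation test of the thinned shares over samples, which cannot go below 0.333 with 2 against 2, gave 0.333 for ASL and ASS1 and 0.667 to 1.00 for the other 4 (0.999 and 1.00 after Benjamini-Hochberg adjustment over the 6 genes).

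**Figure D4:**
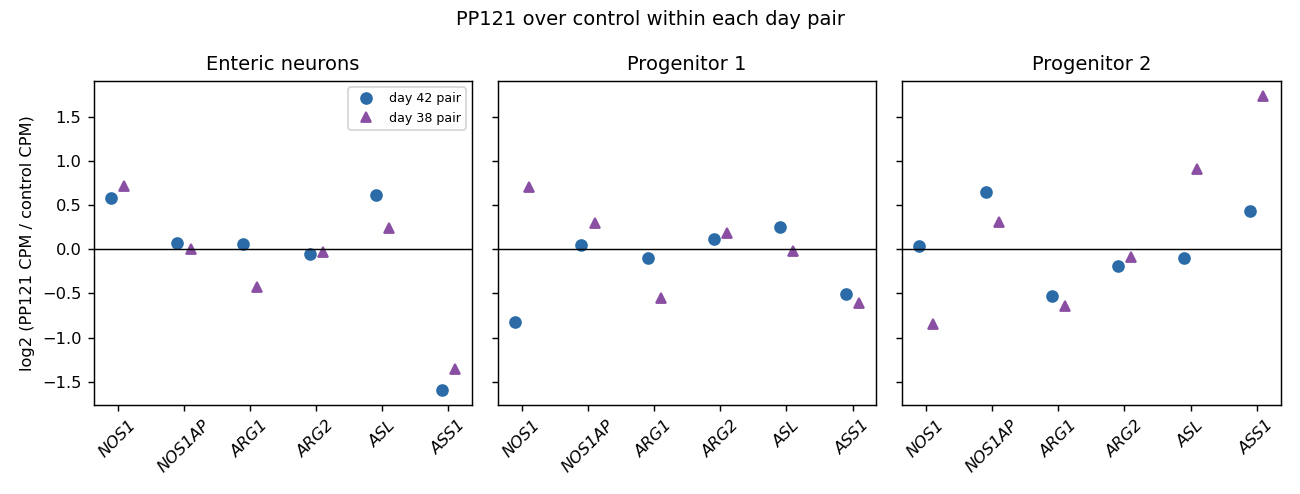
Log2 ratio of PP121 to control level (y axis, levels in CPM) for each gene (x axis) in enteric neurons, progenitor 1 and progenitor 2; circles are the day 42 pair, triangles the day 38 pair, and the line marks no difference. In neurons both pairs put NOS1 and ASL above and ASS1 below the line. In progenitor 2 both put NOS1AP and ASS1 above it and ARG1 and ARG2 below it.

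In progenitors none of the 5 genes tested was called, without or with the block, where 0% and 1.72% of all genes were, and none had an unadjusted p under 0.05 (962 of 20260 genes did without the block). DESeq2 called none of the 5 and 0.197% of all genes. NOS1AP was the exception when progenitor 2 was fitted alone, a fit added after the levels were seen. It was at 115 and 146 CPM in control progenitor 2 and at 182 in both PP121 samples. The difference was 0.50 ± 0.16 (edgeR adjusted p = 0.441) and was called with the replicate block (0.51 ± 0.12, edgeR adjusted p = 0.00263), where 6.71% of all genes were. ARG1 was lower in both PP121 samples of progenitor 2, at 13.6 and 10.8 CPM against 19.6 and 16.8 CPM, and was not called (-0.55 ± 0.21, edgeR adjusted p = 0.484, and 0.11 with the block). ARG2 was also lower in both PP121 samples there (mean 39.4 against 43.5 CPM) and was not called. ASS1, too low to be tested there, was higher in both (mean 0.687 against 0.372 CPM). The share of all genes whose groups did not overlap in progenitor 2 was not counted. In progenitor 1 NOS1, NOS1AP, ARG1, ARG2, ASL and ASS1 all overlapped between the groups. The PP121 difference was not shown to depend on class: no gene of the set was called for the interaction of PP121 with neuron against progenitor (0% of 21787 genes, 709 with an unadjusted p under 0.05; ASS1 had the smallest unadjusted p, 0.0476, edgeR adjusted p = 1.00).

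Over all annotated nuclei, where fewer cells of a class and less RNA per cell cannot be told apart, none of the 6 genes was called, without or with the block (0% and 0.883% of all genes, 1113 with an unadjusted p under 0.05 without the block), and DESeq2 called none of them and 0.203% of all genes. ASL was at 29.9 and 28.4 CPM in control and at 39.6 and 34.0 CPM in PP121 (0.35 ± 0.14, edgeR adjusted p = 0.931, unadjusted 0.0494). NOS1AP was at 103 and 111 CPM in control and at 119.7 and 133 CPM in PP121 (0.25 ± 0.15, edgeR adjusted p = 0.931). NOS1 was at 2.87 and 3.501 CPM against 3.68 and 4.03 CPM (0.28 ± 0.26, edgeR adjusted p = 0.932). In each of these 3 genes both PP121 samples lay above both control samples, as they did for 17.6% of all genes tested.

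A wider list of 36 genes covered the other synthases, partners of the synthases and of NOS1AP, arginine transport and use, the cofactor tetrahydrobiopterin and dimethylarginine turnover. The other nitric oxide synthases were near the limit of detection, with NOS2 at 0.271 to 0.653 CPM and NOS3 at 0.369 to 1.26 CPM in neurons. Between neurons and progenitors 30 of the list were tested, of which 7 were higher and 10 lower, where 49.2% of all genes were called, with a median of -0.19 against -0.02 over all genes. The 6 of largest size were all lower in neurons than in progenitor 1 and 2 summed. They were SLC7A3 (-1.26) and SLC7A2 (-0.84), carriers of cationic amino acids such as arginine, and NOSTRIN (-1.11), a nitric oxide synthase-binding protein. Also among them were GATM (-0.99), which uses arginine to make a creatine precursor, and CPS1 (-0.81), the entry enzyme of the urea cycle. The last was DDAH1 (-0.99), which breaks down methylated arginines that inhibit the synthase. In progenitor 1 alone NOSTRIN was at 4.30, 3.51, 4.98 and 6.90 CPM in control 1, control 2, PP121 1 and PP121 2. Neurons had more in each, at 10.7, 10.7, 9.03 and 15.9 CPM. CPS1 was below neurons there except in PP121 2. SLC7A3 and GATM were above neurons there in all 4 samples, SLC7A2 except in PP121 2 and DDAH1 except in PP121 1. Progenitor 2 stood above progenitor 1 in NOSTRIN (2.97), CPS1 (1.53) and DDAH1 (1.12) and below it in RASD1 (-1.43), ODC1 (-1.15), the first enzyme of polyamine synthesis, and OAT (-0.97), the ornithine aminotransferase, with 7 of 30 tested higher and 9 lower, where 57.3% of all genes were called. DESeq2 called 5 of them higher and 5 lower, edgeR without control 1 called 6 and 4 of 29, and without PP121 1 5 and 5 of 28.

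In mesenchymal nuclei 5 of 28 tested genes of the list were higher than in neurons and 1 lower, where 31.2% of all genes were called. The higher ones were SLC7A2 (1.91), CPS1 (1.01), ALDH18A1 (0.77), which makes a proline and ornithine precursor, OAT (0.71) and DDAH1 (0.62), and the lower one was CALM2 (-0.55), a calmodulin gene. Without control 2 none of 27 tested was called (4 with an unadjusted p under 0.05, edgeR), without PP121 2 edgeR called 2 higher and 1 lower, and DESeq2 on all samples called 3 higher and 1 lower. In the unknown class 6 of 26 were higher than in neurons and 4 lower, where 33.1% of all genes were called, led by CPS1 (1.59), NOSTRIN and DDAH1 (1.34), with GCH1 (0.99), the first enzyme of tetrahydrobiopterin synthesis, also higher and SLC7A1 (-0.82) and AZIN2 (-0.60) lower. With any 1 sample left out 4 to 5 genes were higher and 1 to 2 lower. CPS1 and DDAH1 passed the test above neurons in progenitor 1 and 2 summed and in the unknown class. With control 2 included, both also passed it in mesenchymal nuclei. In progenitor 1 alone CPS1 was below neurons in control 1, control 2 and PP121 1, and DDAH1 was below neurons in PP121 1. With day, 1 gene of the list was called in neurons (30 tested, 9.49% of all genes called), 2 in progenitor 1 (29 tested, 14.6%) and 1 in progenitor 2 (29 tested, 4.81%). These were SLC7A2 in neurons (1.61 ± 0.46 on day 38, edgeR adjusted p = 0.0245, with 0.844 and 0.475 CPM on day 42 against 1.44 and 2.63 CPM on day 38), DDAH1 (0.56) and OAT (-0.52) in progenitor 1, and SLC7A1 in progenitor 2 (-0.73). None of these 4 was called without the treatment term (edgeR adjusted p from 0.195 to 0.656) or by DESeq2, which gave SLC7A2 no adjusted p. SLC7A2 was also not called at the joint boundary (edgeR adjusted p = 0.0809).

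With PP121 none of the list was called without the block, in all nuclei (33 tested), neurons (30) or progenitors (30), where 0% of all genes were, and DESeq2 called none. An unadjusted p under 0.05 was found for 1, 3 and 0 of the list (edgeR). The median of the list in neurons was -0.12 against 0.00 over all genes tested. In neurons the smallest p-values were those of ODC1, at 142 and 127 CPM in control and 92.7 and 87.7 CPM in PP121 (-0.54 ± 0.12, edgeR adjusted p = 0.377), and of SCRIB, a scaffold protein that binds NOS1AP, at 16.0 and 19.7 CPM against 13.4 and 9.71 CPM (-0.57 ± 0.22, edgeR adjusted p = 0.400). With the replicate block 3 were called in neurons, where 14.8% of all genes were, all lower: ODC1 (edgeR adjusted p = 0.000302), SCRIB (0.035) and DDAH2 (0.0359), the last at 54.4 and 45.9 CPM in control and 36.5 and 39.4 CPM in PP121. With the block and the joint boundary, where 5.87% of all genes were called, ODC1 was called (edgeR adjusted p = 0.0104) and SCRIB (0.229) and DDAH2 (0.148) were not. In progenitors CPS1 (0.41 ± 0.23) and DDAH1 (-0.36 ± 0.21) had the smallest p-values (both edgeR adjusted p = 1.00), and in all nuclei ODC1 (-0.37 ± 0.12) and DDAH2 (-0.29 ± 0.15) had (both edgeR adjusted p = 0.931). In neurons with a NOS1 UMI none of 27 tested was called (0 with an unadjusted p under 0.05, edgeR); QDPR (-0.80 ± 0.44) and SLC7A3 (1.39 ± 0.79) had the smallest p-values.

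Genes whose levels ran most like those of the set were ranked by Pearson correlation of log2(CPM + 1) over 23 sums of sample and class, which share libraries and classes. Those near the top for NOS1AP included AHCYL2 (0.88), TRPM3 (0.86), RSPO1, AL161757.4 and OTX2 (0.85 each). For ARG2 they included KIAA0895L (0.87), KCNB2 (0.84) and VASH2 (0.83), for ARG1 AL022311.1 and TCF7 (both 0.82), for ASL FOXO3 (0.78), PIK3CA and KANSL2 (both 0.77), and for ASS1 DAB2 (0.89), CARMN (0.88) and CGNL1 (0.88). For NOS1 the list included SEMA6C (0.87), NRN1 (0.81), CAVIN4 (0.80) and MAP7D1 (0.80), but its highest sum, 20.3 CPM in the epithelial class of control 2, came from 4 UMIs in 1 nucleus. Over the 20 sums without that class the genes most like NOS1 included TMEFF1 (0.91), MEGF9 (0.90), FNBP1L (0.89) and SEMA6C (0.88). Among the 6 genes themselves the highest correlation was 0.49, between NOS1 and ASL, and the lowest was -0.49, between ARG2 and ASS1.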

How the data were processed

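Single-nucleus RNA counts were measured in 4 samples, 2 control and 2 PP121. The authors prepared droplet 3′ libraries and deposited whole-number UMI counts per gene and nucleus, with nuclear classes, transmitter identities and the percent of counts from mitochondrial and ribosomal genes, per the deposited annotation. The submitters' processing notes name Cell Ranger, Seurat 4.0.4 and GRCh38, and the methods name kallisto and bustools, so the counting tool is uncertain. Nuclei labelled filtered were left out. Counts were summed per sample and class and tested with edgeR 4.0.16 (quasi-likelihood, TMM, its filter on low counts; R 4.3.3), with DESeq2 1.42.0 as an alternative. Calls had a Benjamini-Hochberg adjusted p under 0.05 over all genes, and errors after ± are standard errors of log2 fold changes. The fits were also run on simulated counts with a fixed dispersion, no day effect and changes only in genes at 10 CPM or more. That run does not test calls on genes as low as NOS1 and ASS1 in neurons, nor the day effects of these data. Shares of nuclei were thinned to 2000 UMIs, with 95% Clopper-Pearson intervals. No doublet caller was run; leaving out the deepest 5% of nuclei was an alternative.

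Groups came from the sample titles. The sample column of the deposited annotation disagrees with the titles for both control files, also in the replicate number by which samples were paired. The titles were used. Same-numbered samples share the annotated day, so the replicate number was taken to pair samples. Deviations from group means correlated at 0.61 in neurons, 0.42 in progenitors and 0.70 in all nuclei (genes at 10 CPM or more). With 2 samples a group the deviations of both samples mirror each other, so these correlations do not test the pairing. Calls made with the block rest on it. Members and lists were chosen with earlier results of these data known. All 6 members are named; of the wider list, those with an adjusted p under 0.05 (at most the 6 largest changes) or else the 2 smallest p; and the 5 (NOS1, NOS1AP) or 3 genes most alike, among genes at 10 CPM or more, or 5 CPM for members below 10. Some of the genes most alike are not reported here. The joint boundary assigned neurons and progenitors of all samples by 1 share of neuron-marker UMIs. Promoters came from RefSeq (GRCh38.p14), in which all 6 members were found.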

Additional observations from a re-analysis of the deposited data

Results flagged for a closer look

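Nuclei that the authors filtered out, 1816 to 4248 a sample with median depths of 666 to 822.5 UMIs, entered no comparison above. In their summed counts 4 genes were higher in both PP121 samples than in both control samples, given here in the order control 1, control 2, PP121 1 and PP121 2. NOS1 stood at 3.85, 2.08, 3.86 and 4.03 CPM (PP121 over control 1.33), with control 1 and PP121 1 nearly equal. NOS1AP stood at 86.1, 101, 104 and 126 CPM (ratio 1.22). ASL stood at 26.0, 29.8, 40.5 and 31.4 CPM (ratio 1.29). ASS1 stood at 0.849, 0.548, 1.45 and 1.01 CPM (ratio 1.76) from 13, 5, 12 and 6 UMIs, the direction opposite to that in annotated neurons. None of these differences was tested.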

How the results depend on the processing

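The count of the 6 genes called changed under the following alternatives and no others. For PP121 in neurons it was 0 without and 3 with the replicate block, 1 with the block and the joint boundary and 2 with the block and without the 3 NOS1-richest neurons of each sample. For PP121 in progenitors it was 0, and 1 for progenitor 2 alone with the block. Without the treatment term the day comparison in progenitor 1 called 0 in place of 1. Neurons against progenitors called 3 in place of 4 with DESeq2 and at the joint boundary, and 5 without the deepest nuclei. With 1 sample left out neurons against progenitors called 3 to 4, mesenchymal nuclei against neurons 2 to 3, the unknown class against neurons 2 to 4 and the comparison of both progenitor classes 1 to 2. The block changed no other count. A lone sample of a group was assumed to vary like the others. The joint boundary with the block, the fits of progenitor 1 or 2 alone, the fits without the NOS1-richest neurons and those of the mesenchymal and unknown classes, of progenitor 2 against progenitor 1 and of the day within progenitors were chosen after seeing the data.

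Of 414 values of single genes under alternatives 11 were no longer past the threshold, 9 were newly past it and 26 turned their sign, none of the latter past the threshold in either fit, and the cause was not tested. Left-out samples gave log2 ranges of -0.24 to 0.097 (ARG2) and -0.97 to 0.14 (ASS1) for PP121 in all nuclei, -0.36 to 0.076 (ARG1) and -0.17 to 0.17 (ARG2) in neurons, and -0.59 to 0.17 (NOS1) and -0.11 to 0.043 (ARG2) in progenitors. They gave -0.15 to 0.53 (ARG1), -0.10 to 0.19 (ARG2) and -0.036 to 0.22 (ASL) for neurons with a NOS1 UMI, -0.70 to 0.012 (NOS1AP) for mesenchymal nuclei and -0.41 to 0.29 (ARG1) for the unknown class. ARG2 under PP121 was 0.0035 in neurons by DESeq2, and in progenitors 0.053 without the deepest nuclei, 0.036 at the joint boundary, 0.035 there with the block, and 0.13 in progenitor 1 alone without (0.133) and with the block (0.130). ASL in neurons with a NOS1 UMI was -0.88 for at least 2 NOS1 UMIs and -0.089 at the joint boundary, which also gave 0.038 for NOS1AP by day in neurons and -0.080 for the interaction of ARG2. Thinned to 4000 UMIs the PP121 difference in shares of neurons was 0.0166 percentage points for NOS1 and 0.938 for ARG2. With at least 10 counts in every sample ASS1 was not tested in neurons.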

Other observations

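In neurons with a NOS1 UMI against those without, 69 genes other than NOS1 were called by edgeR, 59 higher and 10 lower. The genes of smallest p, chosen after the values were seen, were AC139720.1 (2.35 on the log2 scale), HS6ST3 (1.95), a heparan sulfate sulfotransferase, NTNG1 (1.73), an axon guidance protein of the netrin-G family, GPC6 (1.13), a glypican, AQP4-AS1 (2.09) and INPP4B (1.77), a phosphoinositide phosphatase. HS6ST3 was at 71.9, 299, 254 and 261 CPM in neurons with a NOS1 UMI of control 1, control 2, PP121 1 and PP121 2. In neurons without one it was at 43.7, 41.4, 55.4 and 71.9 CPM. NTNG1 was at 135, 162, 210 and 852 CPM against 51.4, 74.2, 74.7 and 123 CPM. Both were higher in all 4 samples, and both were called by DESeq2 (adjusted p = 7.25e-07 and 1.34e-06).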
